A study of Homo sapiens with 4 samples.

Results

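The cluster of miR-424, miR-503, miR-542 and miR-450 is a group of microRNA (miRNA) hairpins on the human X chromosome. Its 5 mature products described here are hsa-miR-424-3p, hsa-miR-503-5p, hsa-miR-542-3p, hsa-miR-450a-5p and hsa-miR-450b-5p, written below without the species prefix. They were taken by name from a table of 1096 entries, 516 of them with a catalogue name, and all 5 were found. The libraries were made from small RNA of PC-3, an established cell line from a bone metastasis of human prostate cancer. There were 2 control libraries, from untreated cells, and 2 apelin libraries, from cells given the peptide apelin at 10 µg/mL for 24 h. Cells of both groups grew in DMEM with serum and antibiotics, and the comparison asks which miRNAs differ in level with the peptide. Nothing in the labels says that same-group libraries were grown as separate cultures, so the p-values below rest on a spread that may be technical. In such bulk libraries, fewer cells with a miRNA and less of it per cell cannot be told apart.

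A miRNA is cut from a hairpin precursor into a short RNA that binds messenger RNAs by its seed, bases 2 to 8, and represses them. Hairpins that lie close together on a strand are often made from a shared primary transcript, after which each hairpin is cut and each mature strand is kept or lost on its own. The 5p arm of MIR424 and miR-503-5p are related to miR-15 and miR-16, which repress cyclins and other cell cycle genes. In lung artery endothelial cells apelin signalling has been reported to raise miR-424 and miR-503, which repress FGF2 and its receptor FGFR1, which is the cluster's link with apelin. Of MIR424 only the 3p strand was analysed here, and its seed differs from that of the 5p arm. Its values are therefore not set against that report.

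The 6 hairpins of the cluster lie on chromosome X from 134540185 to 134546711 on the minus strand (GRCh38, GENCODE release 29), a span of 6527 bp. In the direction of transcription MIR424 comes first (134546614 to 134546711), then MIR503 (134546328 to 134546398) after a gap of 215 bp. MIR542 (134541341 to 134541437) follows after 4890 bp, and then MIR450A2 (134540508 to 134540607), MIR450A1 (134540341 to 134540431) and MIR450B (134540185 to 134540262). The lincRNA MIR503HG (134543337 to 134546632) has 5 annotated transcripts. Part of MIR424 lies in the first exon of 3 of them, and MIR503 lies in the first intron of the same 3. The first exons of these 3 start 79 to 88 bp from the 5' end of MIR424, beyond the stretch of miR-424-3p (bases 48 to 68). The other hairpins lie downstream of all 5 transcripts. In this annotation MIR503 is thus the only hairpin that lies whole within MIR503HG, and no MIR503HG transcript holds miR-424-3p.

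**Figure D1:**
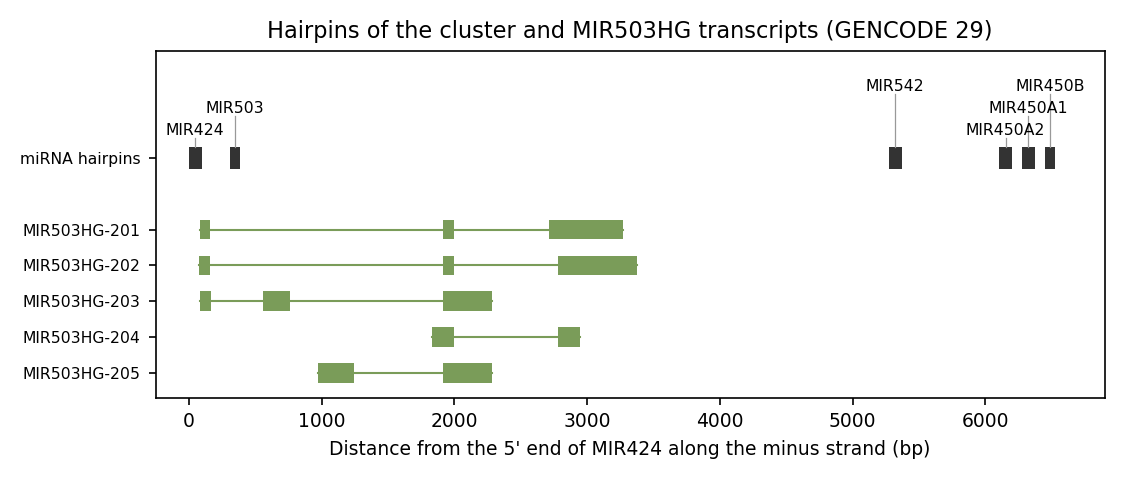
Map of the cluster. The horizontal axis is the distance in bp from the 5' end of MIR424 along the minus strand, black boxes are the 6 miRNA hairpins, and green boxes and lines are exons and introns of the 5 MIR503HG transcripts. The end of MIR424 overlaps the start of MIR503HG, MIR503 lies within it, and MIR542 and the 3 MIR450 hairpins lie beyond its end.

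The mature sequences below, from RefSeq (GRCh38.p14), show how far the members differ in the seed. They run 5′ to 3′ with the seed in capitals, and RefSeq matched 4 of the 5 members, all but miR-542-3p. The 5p arm of MIR424 (not analysed here) and miR-16-5p are shown beside them because their seed is the one that miR-503-5p nearly has.
miR-424-3p: cAAAACGUgaggcgcugcuau
miR-503-5p: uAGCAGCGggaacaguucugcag
miR-450a-5p: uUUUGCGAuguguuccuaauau
miR-450b-5p: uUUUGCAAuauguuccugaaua
miR-424-5p: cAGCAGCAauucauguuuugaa
miR-16-5p: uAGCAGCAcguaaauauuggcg

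No 2 of these 4 members had the same seed. miR-450a-5p and miR-450b-5p differed at 6 of 22 aligned bases, and in the seed by G7A (miR-450a-5p has the first letter; positions count from 1 at the 5′ end). miR-503-5p differed from miR-16-5p in the seed by A8G, with bases 2 to 7 (AGCAGC) in common. Among the 452 catalogue entries with a RefSeq sequence, no other entry had the whole seed of any of these 4 members. Bases 2 to 7 of miR-503-5p were shared by 5 others, which were miR-15a-5p, miR-15b-5p, miR-16-5p, miR-195-5p and miR-497-5p. Bases 2 to 7 of miR-424-3p (AAAACG) were shared by 1, miR-548ad-3p, which was under the level tested.

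The MIR424 hairpin is printed to show which arm was counted, with miR-424-3p (bases 48 to 68 of 98) in capitals.
MIR424: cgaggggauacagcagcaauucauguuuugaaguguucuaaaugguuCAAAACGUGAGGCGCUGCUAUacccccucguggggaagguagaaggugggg

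The 5p arm runs from base 11 to base 32, with 15 bases between it and the counted strand. miR-450a-5p has the same sequence in MIR450A1 and MIR450A2, so its counts do not say which of these 2 hairpins they came from. The table lists miR-503-5p at 22 nt and miR-450b-5p at 21 nt, 1 base under their RefSeq lengths of 23 and 22 nt. No source used here gives how reads shared between similar miRNAs were assigned. Some miRNAs are listed under more than 1 name with nearly equal or equal values. In control 1, miR-24-1-3p had 102968 counts and miR-24-2-3p 102236, and miR-24-2-3p and miR-24-3p gave the same log2 fold change (0.325). Library totals, TPM, ranks and shares of entries given below include such repeats, and their weight was not tested.

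The libraries held 5322429 to 6014838 counts. Levels are the deposited TPM, which here are counts per 1000000 of a library, not divided by length. The members are listed at 21 to 22 nt, so they differ little in length. How evenly different sequences were captured was not tested, so comparisons between members are of counts, not of molecules. As a check of the label, the epithelial list had 4 of 5 markers, summing to 7704 to 7948 TPM in controls and 7524 to 7779 TPM with apelin, mostly miR-200b-3p. All 4 had groups that did not overlap in TPM, as did 38.4% of the 263 entries tested (mean of at least 10 TPM). The apelin values were the lower ones for miR-200b-3p, miR-200c-3p and miR-205-5p, as for miR-424-3p and for 17.5% of the 263 entries. They were the higher ones for miR-200a-3p, as for 20.9% of the entries. edgeR called 0 of the 4 markers and 0.0% of the 263 entries. DESeq2 called 20.2% of the entries (12.9% as lower). Among them were miR-200c-3p (33.2 to 24.5 TPM, group means, adjusted p = 0.0376) and miR-205-5p (95.8 to 76.6 TPM, adjusted p = 0.0129). Of the other cell type lists, blood (2 of 6 markers) summed to 37.1 to 39.1 TPM in controls and 28.2 to 35.9 TPM with apelin. Most of that sum was miR-486-5p, which lay below both controls with apelin, as did 17.5% of the 263 entries. The endothelial list (miR-126-3p) summed to 6.32 to 13.7 TPM and stroma (miR-143-3p) to at most 1.5 TPM. Striated muscle (2 of 3) summed to at most 2.63 TPM and liver (miR-122-5p) to at most 4.82 TPM. miR-223-3p, miR-143-3p, miR-1-3p and miR-133a-3p were at 0 in some library. Of the neuronal list 1 of 2 markers was analysed here, miR-9-5p, at 298 to 299 TPM in controls and 300.05 to 399 TPM with apelin. Above both controls with apelin were likewise 20.9% of the 263 entries. PC-3 is a cell line, and any link between these markers and the members' values was not tested. Among the libraries apelin 2 stood apart in the most abundant miRNA, with 168194 TPM of miR-21-5p against 91403 to 113810 TPM in the others.

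In PC-3 cells the 5 members were present at moderate to low levels, and the 2 from the hairpins nearest the start held most of their counts. The other products of the hairpins were not analysed, so the output of the whole cluster is not known. Over the 4 libraries miR-424-3p averaged 348 TPM (rank 96 of 516 catalogue entries) and miR-503-5p 307 TPM (rank 104). miR-450a-5p averaged 66.4 TPM (rank 154), miR-450b-5p 33.0 TPM (rank 175) and miR-542-3p 23.9 TPM (rank 185). The ranges of miR-424-3p (255 to 429 TPM) and miR-503-5p (264 to 353 TPM) overlapped, so their order is not settled over the libraries. The catalogue entries next to miR-424-3p in mean level, miR-374b-5p (373 TPM) and miR-218-5p (346 TPM), also overlapped it in range, as miR-1180-3p (307 TPM) and miR-210-3p (299.5 TPM) did miR-503-5p. The 3 downstream members kept 1 order in every library, miR-450a-5p over miR-450b-5p over miR-542-3p, with ranges that did not overlap (54.4 to 87.0, 30.3 to 38.2 and 20.7 to 28.2 TPM). All 5 passed the minimum of 10 TPM on average and were tested.

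**Figure D2:**
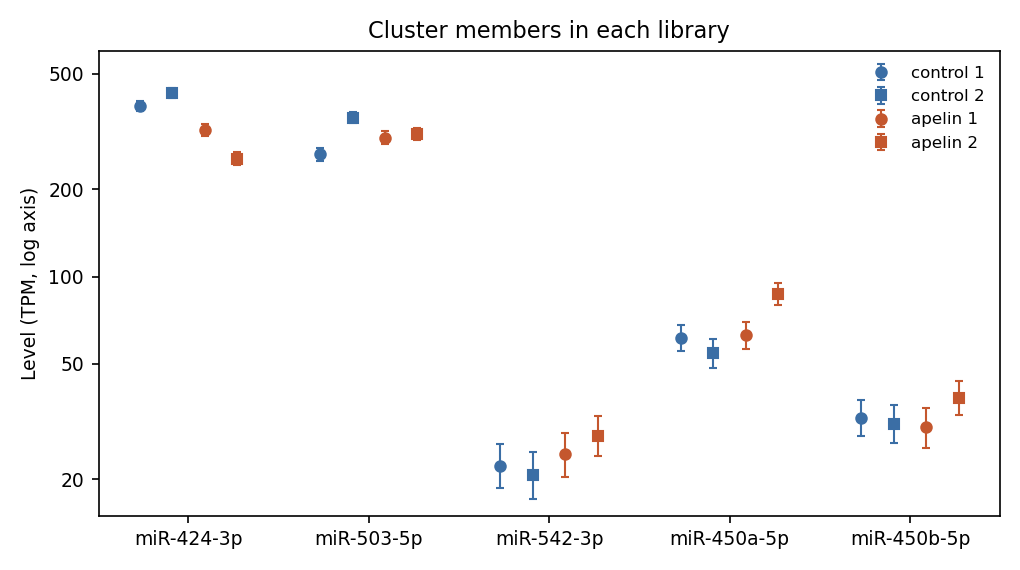
Level of each member in each library. The vertical axis is TPM on a log scale, circles and squares are replicates 1 and 2, blue is control and orange is apelin, and bars are exact 95% Poisson intervals of the counts, covering counting error only. miR-424-3p lies lower in both apelin libraries (320 and 255 TPM) than in both controls (386 and 429 TPM), while the 4 points of miR-503-5p overlap.

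No member passed the test between apelin and control libraries. The edgeR quasi-likelihood test called 0 of 5 members, and 0 of all 263 tested entries (0.0%), at a Benjamini-Hochberg adjusted p of 0.05. At an unadjusted p under 0.05 there was 1 member, miR-424-3p, against 15 of the 263 entries (5.7%), of which 8 (3.04%) had negative values as it did. In TPM the 2 groups were separate for 3 of the 5 members, against 38.4% of the 263 entries. Below both controls was miR-424-3p (17.5% of the tested entries were), and above both controls were miR-450a-5p and miR-542-3p (20.9% of entries were). The median log2 fold change of the 5 members was 0.13, and that of all tested entries was -0.018.

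miR-424-3p, the 3p strand of the first hairpin, was the member furthest from its control level. It stood at 386 TPM in control 1 and 429 TPM in control 2, and at 320 TPM in apelin 1 and 255 TPM in apelin 2. Both apelin libraries lay below both controls. The apelin libraries also differed from each other by more than counting error (95% intervals of 305 to 336 and 242 to 268 TPM). So did the controls (371 to 402 and 413 to 447 TPM). The control mean was 408 ± 31 TPM and the apelin mean 287 ± 46 TPM (SD, n = 2 each). This is a log2 fold change of -0.49 (SE 0.15, 95% interval -0.97 to -0.0078), which did not pass (edgeR adjusted p = 0.627). It ranked 15 of 263 by p. DESeq2 on the same entries called it (log2 fold change -0.49, SE 0.15, adjusted p = 0.00657), as it did 20.2% of them (12.9% as lower). On the 207 tested catalogue entries above 0 in every library, a setting chosen after seeing the data, DESeq2 did not (adjusted p = 0.174), and there it called 0 entries (0.0%, with 26 at an unadjusted p under 0.05). The log2 fold change was -0.43 without apelin 2 and -0.63 without apelin 1.

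miR-503-5p, from the neighbouring hairpin and a repressor of cyclin D1, gave groups that overlapped. It had 264 TPM in control 1 and 353 TPM in control 2, against 301 TPM in apelin 1 and 309 TPM in apelin 2. Both apelin values lay between the controls, which were the 2 extremes. The controls differed by more than counting error (95% intervals of 251 to 277 and 337 to 368 TPM). The fitted log2 fold change was 0.013 (SE 0.18, 95% interval -0.58 to 0.61), with an edgeR adjusted p = 0.976. Its sign followed single libraries, at -0.18 without control 1, 0.19 without control 2 and -0.11 without apelin 2, and it was -0.013 with library totals in place of TMM. The interval does not exclude a change of up to about 0.6 in either direction on the log2 scale, so an equal level is not shown.

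miR-542-3p, known as a repressor of survivin (BIRC5), was the least abundant member. It had 22.3 TPM in control 1 and 20.7 TPM in control 2, against 24.4 TPM in apelin 1 and 28.2 TPM in apelin 2. Both apelin values lay above both controls, but they rest on 117 to 161 counts and the counting intervals of apelin 2 (24.0 to 33.0 TPM) and control 1 (18.7 to 26.4 TPM) overlap. Its log2 fold change was 0.32 (SE 0.24), with an edgeR adjusted p = 0.664, and it was 0.10 without apelin 2.

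miR-450a-5p had the highest fitted value of the 5. It stood at 61.5 TPM in control 1, 54.4 TPM in control 2, 62.7 TPM in apelin 1 and 87.0 TPM in apelin 2. Apelin 1 lay just above control 1, within counting error, and apelin 2 alone lay above the others by more than counting error (lower 95% bound 79.5 TPM). Its log2 fold change was 0.39 (SE 0.30), with an edgeR adjusted p = 0.663, and it was 0.033 without apelin 2 and 0.63 without apelin 1.

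miR-450b-5p, whose sequence is close to that of miR-450a-5p, had 32.6 TPM in control 1, 31.1 TPM in control 2, 30.3 TPM in apelin 1 and 38.2 TPM in apelin 2. Apelin 1 was the lowest library and apelin 2 the highest, so the groups overlapped. Its log2 fold change was 0.13 (SE 0.26), with an edgeR adjusted p = 0.873, and it turned to -0.15 without apelin 2. In all 3 downstream members apelin 2, the library that stood apart in miR-21-5p, was the highest of the 4. Its part in their values was not tested beyond leaving it out.

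**Figure D3:**
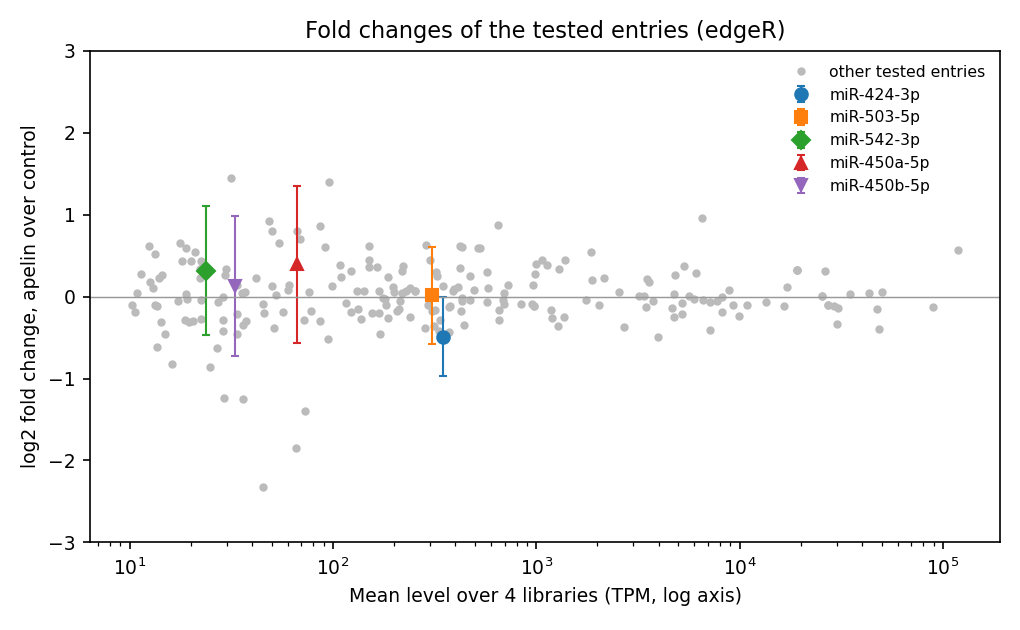
Log2 fold change (apelin over control, edgeR) against the mean level in TPM on a log axis. Grey points are other tested entries, coloured points are the 5 members with 95% intervals, and 35 entries beyond 3 in size are outside the plotted range. The interval of miR-424-3p ends just under 0 and the other 4 intervals span 0.

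Ratios between members within a library do not depend on how libraries are scaled, and 10 pairs were compared. The counts of miR-424-3p were 1.46 times those of miR-503-5p in control 1 and 1.22 times in control 2. The ratio was 1.06 in apelin 1 and 0.823 in apelin 2, the only library in which miR-503-5p was the more abundant. The groups did not overlap, and the ratio with apelin was 0.700 of that in controls (log2 difference -0.51, from 0.42 ± 0.19 to -0.097 ± 0.26, SD, n = 2). An exact permutation test of 2 against 2 libraries (two-sided) gave p = 0.333, the smallest that it can give, and 0.556 after adjustment over the 10 pairs, so no pair could pass.

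The ratio of miR-424-3p to each of the 3 downstream members was lower in both apelin libraries too. To miR-450a-5p it was 6.27 and 7.88 in controls 1 and 2, and 5.09 and 2.93 in apelin 1 and 2. To miR-542-3p it was 17.3 and 20.7 in controls, and 13.1 and 8.99 with apelin. To miR-450b-5p it was 11.8 and 13.8 in controls, and 10.5 and 6.65 with apelin. Apelin 2 gave the lowest value in all of these. miR-424-3p was thus lower against 4 of 4 other members (log2 differences of -0.87 to -0.51). These rested in part on apelin 2, without which they were -0.33 to miR-503-5p, -0.53 to miR-542-3p, -0.47 to miR-450a-5p and -0.28 to miR-450b-5p. Without apelin 1 the last was -0.94, against -0.61 with all libraries. Set against each of the other 206 catalogue entries above 0 in all libraries, its ratio was lower in both apelin libraries for 81.1%, so most of those entries gave what its cluster partners gave.

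Of the 6 pairs without miR-424-3p, 2 had groups that did not overlap, against 43.2% of all pairs of those 207 entries. miR-450a-5p stood at 1.89 and 1.75 times miR-450b-5p in controls, and at 2.07 and 2.27 times with apelin (log2 difference 0.26). miR-542-3p stood at 0.684 and 0.666 times miR-450b-5p in controls, and at 0.808 and 0.739 times with apelin (log2 difference 0.20). The ratio of miR-503-5p to the downstream members overlapped between groups in all 3 cases (log2 differences of -0.35 to -0.094, and of -0.65 to 0.15 with a single library omitted). Among miR-542-3p, miR-450a-5p and miR-450b-5p the log2 differences were -0.062 to 0.26.

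**Figure D4:**
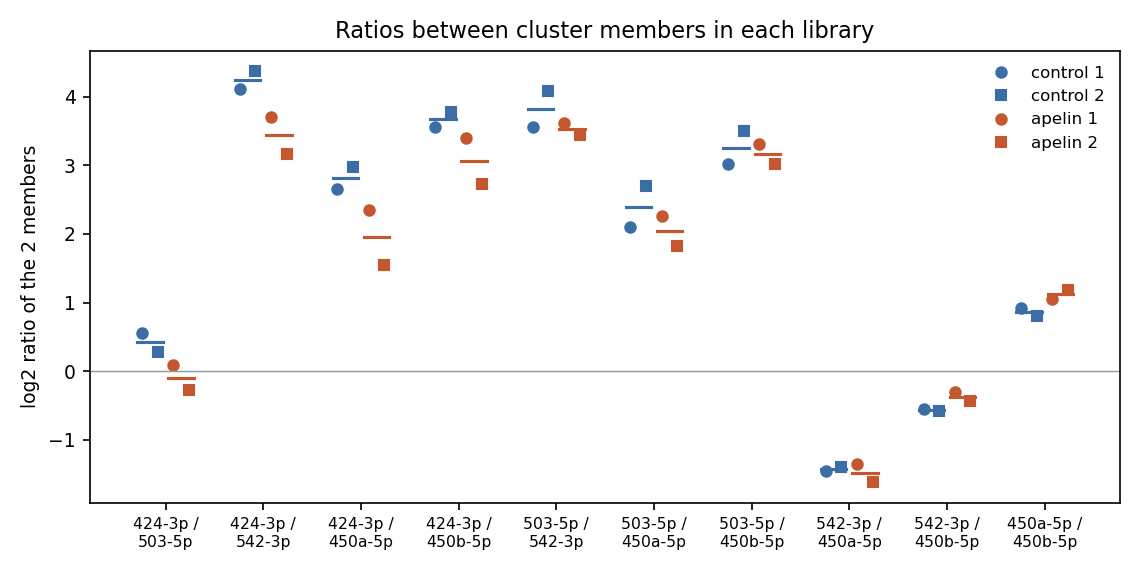
Log2 ratio of each pair of members in each library. Circles and squares are replicates 1 and 2, blue is control, orange is apelin, and short lines are group means. The 4 pairs that start with miR-424-3p have both apelin points under both control points, and their apelin points are also further apart than their control points.

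The balance of the 5 members can be read as shares of their summed counts (exact 95% binomial intervals, counting error only). miR-424-3p held 50.4% (48.9 to 51.9) in control 1 and 48.3% (47.0 to 49.7) in control 2, and 43.3% (41.8 to 44.9) in apelin 1 and 35.5% (34.0 to 37.0) in apelin 2. miR-503-5p held 34.4% and 39.7% in controls, and 40.8% and 43.1% with apelin. miR-450a-5p held 8.03% and 6.12% in controls, and 8.49% and 12.1% with apelin. Shares sum to a fixed total, so a lower share of miR-424-3p raises the others without a change in their levels. The 5 members together held 0.0766% and 0.0888% of all counts in controls, and 0.0739% and 0.0718% with apelin, both below both controls. Without miR-424-3p their summed level was 380 and 459 TPM in controls, and 419 and 463 TPM with apelin, where the groups overlapped.

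The related seed family was far more abundant than miR-503-5p. Of the list of 7 names, 5 were analysed here and all 5 were tested, 0 of them called by edgeR or by DESeq2, which over the 263 entries called 0.0% and 20.2%. None of the 5 had an unadjusted edgeR p under 0.05, against 5.7% of the entries. miR-15b-5p averaged 9244 TPM and miR-16-5p 4796 TPM, while miR-15a-5p (69.2 TPM), miR-195-5p (29.7 TPM) and miR-497-5p (22.5 TPM) were at the level of the downstream members. miR-503-5p made up 1.97% and 2.27% of the summed counts of these 5 and itself in controls, and 2.18% and 2.05% with apelin, and the groups overlapped. The family's log2 fold changes ran from -0.11 (miR-15b-5p) to 0.70 (miR-15a-5p, SE 0.35, edgeR adjusted p = 0.627). The other cluster of this part of chromosome X, miR-106a-363, lies 369906 bp downstream of MIR450B. Of its 6 listed names 2 were analysed here, miR-106a-5p at 20.1 TPM on average (log2 fold change 0.44, SE 0.39, edgeR adjusted p = 0.688) and miR-18b-5p at 0 to 0.53 TPM, which was under the minimum.

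Patterns most like each member's were sought among the other 212 tested catalogue entries, by the root mean square difference of centred log2(TPM + 1) over the 4 libraries. Nearest to miR-424-3p were let-7c-5p (0.044), miR-105-5p (0.056) and miR-1269a (0.059), and nearest to miR-503-5p were miR-532-5p (0.039), miR-455-3p (0.066) and miR-132-3p (0.076). Nearest to miR-450a-5p was miR-135b-5p (0.055), to miR-450b-5p miR-454-3p (0.038) and to miR-542-3p miR-2277-5p (0.038). No member was among the 3 nearest of another. With 4 libraries such likeness is a description only.

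**Figure D5:**
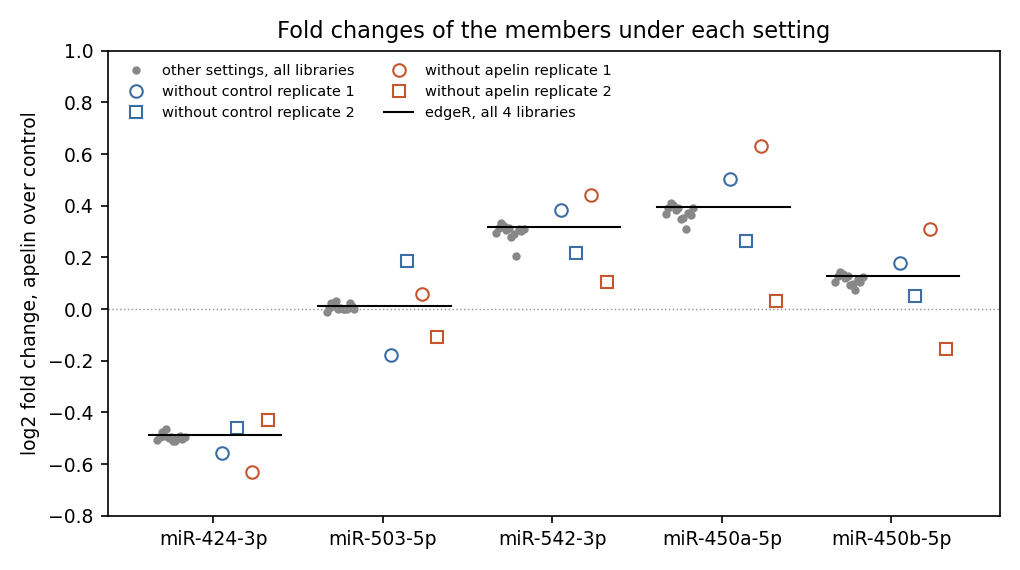
Log2 fold change of each member under every setting. Black lines are edgeR with all 4 libraries, grey points are other settings with all libraries, and open symbols leave out 1 library. miR-424-3p stays between -0.63 and -0.43, miR-503-5p crosses 0 with a library or the scaling changed, and miR-450b-5p crosses 0 without apelin replicate 2.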

How the data were processed

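The authors deposited 1 table with raw read counts and TPM per mature miRNA for each of the 4 libraries. Trimmomatic 0.30 and DESeq2 are the tools named, per the submitters' processing notes. The sources used here give no aligner, miRNA catalogue or genome build. The deposited TPM matched counts per 1000000 of the library total to within 0.005 in 3 libraries and 0.151 in apelin 2. Per the labels' protocols, adaptor-ligated cDNA was amplified by PCR, and reads carry no stated molecular identifiers, so counting intervals cover counting error only. A count of 0 allows up to 3 counts (a one-sided 95% limit), or 0.499 to 0.564 TPM. Intervals around other counts are two-sided.

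The counts were tested with edgeR 4.0.16 (quasi-likelihood, TMM scaling) on the 263 entries with a mean of at least 10 TPM, 2 apelin against 2 control libraries, two-sided. P-values were adjusted by Benjamini-Hochberg over all 263, with a threshold of 0.05. Each SE is the size of the log2 fold change divided by the square root of F. DESeq2 1.42.0, limma 3.58.1 on log2(TPM + 1), other scalings and filters, a replicate block and each library left out were alternatives. Ratios of members used counts with 0.5 added. The scripts were tested on simulated counts with log2 changes of 2 in size. Those are larger than the change of any member, so that test does not cover changes as small as theirs. R 4.3.3 and Python 3.11.15 were used. Of the catalogue entries, 452 of 516 matched a RefSeq mature sequence.

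The members, lists and tests were chosen with earlier results of these data known. Named are the 5 members, the other products of their hairpins (0 of 6 analysed here), the related seed family, the nearby X-linked cluster, marker lists, and the entries nearest each member in pattern.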

Additional observations from a re-analysis of the deposited data

How the results depend on the processing

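The direction of the log2 fold change stayed the same in all 17 alternatives for miR-424-3p and in all 16 for miR-542-3p and miR-450a-5p. miR-424-3p passed in 2 of them, DESeq2 (-0.49) and edgeR with a replicate block on the 207 catalogue entries above 0 in all libraries (-0.50, adjusted p = 0.0394, where 14.5% of entries were called). The latter was chosen after seeing the data. With a replicate block on all 263 entries it did not pass (-0.49, adjusted p = 0.257). Libraries are not paired by number in the labels, and deviations of same-numbered libraries correlated at 0.318 over the 207 entries. miR-503-5p turned to -0.013 with library totals and -0.00018 on the 207 entries. With a library left out miR-424-3p ran from -0.63 to -0.43, miR-503-5p from -0.18 to 0.19, miR-542-3p from 0.10 to 0.44, miR-450a-5p from 0.033 to 0.63 and miR-450b-5p from -0.15 to 0.31. No cause of these shifts was tested.

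Over all tested entries edgeR made 0 calls. There were 52 with no filter, 4 at a mean of at least 100 TPM, 53 with DESeq2, 4, 5 and 4 with limma at a pseudocount of 1, 0.1 and 10, 30 with the block on the 207 entries, 0 with the block on 263, 0 with DESeq2 on the 207, and 0 to 19 when leaving out a library. Of the 10 ratios, 8 kept their direction in all alternatives. Leaving out a library, miR-503-5p to miR-450b-5p ran from -0.34 to 0.15 and miR-542-3p to miR-450a-5p from -0.19 to 0.069. At a minimum of 100 TPM the 3 downstream members were not fitted. No further product of the 6 hairpins was analysed, so the shares are of the 5 members alone. Shares over all products of the hairpins could not be computed.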
